A study of Homo sapiens with 6 samples.

Results

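The genes described are the 9 that make up the ELANE locus and the azurophil granule set, ELANE, PRTN3, AZU1, CFD, MPO, CTSG, SERPINB1, SRGN and LYZ, out of 23368 gene symbols in the count tables. They were picked by name with earlier results of the comparison of maltonis-treated with not treated cells in view, so their changes are given as a description, without a test. NB4, an established human cell line of acute promyelocytic leukemia (APL), carries the PML/RARα fusion, and maltonis is a synthetic molecule derived from maltol. Cells were kept in the same RPMI medium with serum and were either not treated (n = 3) or exposed to 10 µM maltonis (n = 3), and RNA was collected at 24 h. Library totals ranged from 18492154 to 38205483 counts. Levels are given as CPM (counts-per-million, with TMM-scaled library sizes), and the 3 counts taken as detection floor equal 0.0828 to 0.160 CPM, depending on the library.

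Azurophil granules, also called primary granules, are the storage organelles that neutrophil precursors fill at the promyelocyte stage with serine proteases, myeloperoxidase and antimicrobial proteins. The proteases are made as inactive precursors, trimmed to the active form by cathepsin C, and packed on the proteoglycan serglycin. Outside the granule they are held in check by inhibitors of the serpin family. The genes of neutrophil elastase (ELANE), proteinase 3 (PRTN3), azurocidin (AZU1, a family member without protease activity) and complement factor D (CFD) lie side by side on chromosome 19 in the band 19p13.3.

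MPO and SRGN dominated the set, whereas ELANE was close to the detection floor in not treated cells. Levels of different genes were compared as RPKM (CPM divided by the length of the annotated exons in kilobases). In not treated cells the order was MPO at 4140 ± 423 RPKM, SRGN at 2440 ± 64.4, PRTN3 at 434 ± 65.6, CTSG at 79.5 ± 3.89, LYZ at 59.2 ± 1.80, AZU1 at 25.9 ± 2.31, CFD at 23.3 ± 6.25, SERPINB1 at 9.86 ± 0.753 and ELANE at 0.125 ± 0.0576 (SD, n = 3 each). AZU1 and CFD did not differ beyond their spread, and no other neighbors in this order overlapped. MPO, the heme enzyme that makes hypochlorous acid, was the gene with the most counts of all in not treated cells, and the third after maltonis. After maltonis, SRGN stood first at 2400 ± 206 RPKM and MPO second at 2110 ± 36.2, followed by PRTN3 (615 ± 145), CTSG (402 ± 14.5), LYZ (160 ± 12.8), CFD (99.2 ± 15.9), AZU1 (36.1 ± 3.40), SERPINB1 (27.0 ± 1.67) and ELANE (17.0 ± 3.17). The first 5 genes kept their places but for the exchange of MPO and SRGN, CFD passed AZU1, and ELANE stayed last, with no overlap between neighbors. The order was the same when the longest transcript was used as the gene length.

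**Figure D1:**
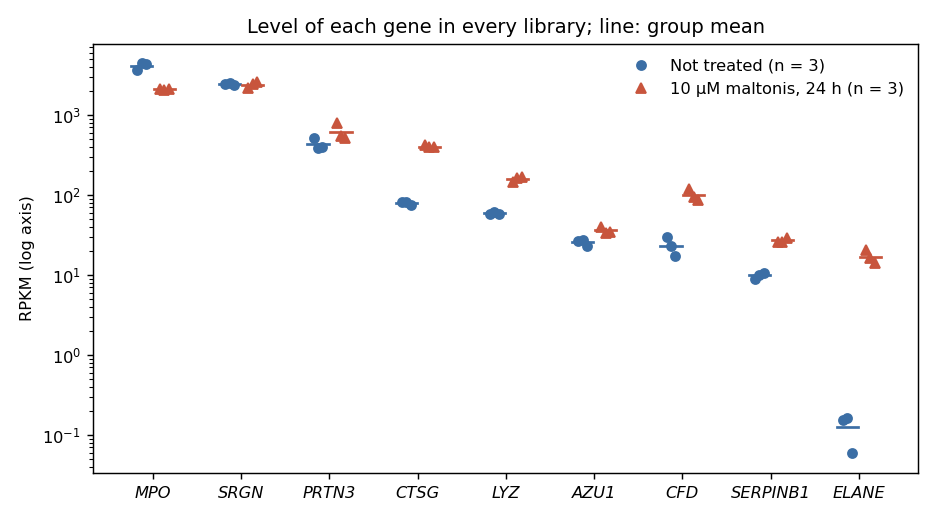
RPKM (log axis) of the 9 genes in each of the 3 not treated (circles) and 3 maltonis-treated libraries (triangles), with group means as lines. The groups are apart for every gene except SRGN, and ELANE moves from a mean of 0.125 to 17.0 RPKM.

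Of the 9 genes, all of which passed the filter on low counts, 7 were higher in every maltonis-treated than in any not treated library and 1 (MPO) was lower. In the same sense the groups did not overlap for 38.8% (higher) and 37.8% (lower) of 13209 tested genes. SRGN overlapped. Since the genes were chosen on this contrast, the count only describes them. In bulk RNA, fewer cells that express a gene and less of its RNA per cell cannot be told apart.

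ELANE encodes neutrophil elastase, the protease best known from severe congenital and cyclic neutropenia. Its counts were 3, 6 and 2 in not treated replicates 1, 2 and 3, and 406, 565 and 409 in the maltonis-treated ones. In CPM the libraries stood at 0.160, 0.166 and 0.0603 without treatment and at 21, 16.9 and 14.5 with it. All not treated libraries were at or near the floor, and ELANE passed the filter on low counts only through the treated group. Summed over libraries, 11 counts stood against 1380. After scaling by the TMM library sizes, as for all count ratios between groups below, the ratio was 136, with a 95% interval of 76.0 to 274 that covers counting error only. The fitted log2 fold change, log2(FC), was 7.07 ± 0.279 (SE), the 12th highest of all genes tested. It lay between 6.68 and 7.41 over the fitted alternatives, without not treated replicate 3 and without not treated replicate 2, in that order. Here and below, the SE is the size of log2(FC) divided by the square root of the quasi-likelihood F statistic. With so few not treated counts it may be too small, since the DESeq2 Wald test gave 7.12 ± 0.47 (SE) for ELANE.

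PRTN3, which encodes the target of most antineutrophil antibodies in granulomatosis with polyangiitis, was already abundant next to the nearly silent ELANE. Its libraries held 584, 449 and 460 CPM without treatment and 896, 625 and 595 CPM with it. Replicate 1 was the highest library in both groups, and the lowest treated library was only just above the highest not treated one. log2(FC) was 0.50 ± 0.164 (SE), and it was 0.27 ± 0.111 without maltonis replicate 1. The file naming puts replicate 1 of each group under one code (batch A) and replicates 2 and 3 under another (batch B), without explaining the codes. Between the groups, PRTN3 differed by 0.62 (log2) within batch A and by 0.42 within batch B. With the batch as a term in the fit, log2(FC) of PRTN3 was 0.49 ± 0.0565 (SE), and blocked by replicate it was 0.49 ± 0.0662 (SE), both with smaller errors than without.

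AZU1, whose product binds heparin and bacteria, had 47.8, 49.2 and 41.5 CPM in the not treated libraries and 71.3, 60.0 and 62.0 CPM in the treated ones. The treated libraries were all higher, and log2(FC) 0.48 ± 0.0936 (SE) was close to that of its neighbor PRTN3. Inside a library, where no scaling enters, AZU1 had 8.19, 11.0 and 9.01 counts per 100 counts of PRTN3 without treatment and 7.96, 9.59 and 10.4 with it, so the groups overlapped. By contrast, ELANE went from 0.0258 ± 0.0120 to 2.49 ± 0.183 counts per 100 counts of PRTN3 (SD, n = 3). CFD went from 5.67 ± 0.992 to 17.4 ± 1.20 counts per 100 counts of PRTN3 (SD, n = 3).

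CFD encodes the protease that cleaves factor B in the alternative pathway of complement. It held 36.1, 28.3 and 20.8 CPM in not treated cells and 143, 114 and 107 CPM in treated cells. Every treated library was far above every not treated one, with a mean 4.26 times as high and log2(FC) 2.10 ± 0.192 (SE). The log2 differences were 1.99 in batch A and 2.18 in batch B.

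Among the genes outside the cluster, CTSG encodes cathepsin G, a chymotrypsin-like protease of the same granule. The not treated libraries held 113, 112 and 103 CPM of CTSG and the treated ones 576, 539 and 544 CPM. The libraries of each group were close together, and the mean was 5.06 times as high after treatment (log2(FC) 2.34 ± 0.0632, SE). SERPINB1 encodes the cytosolic inhibitor that blocks elastase, proteinase 3 and cathepsin G. Its libraries were at 27.9, 31.2 and 32.4 CPM without and 80.7, 80.3 and 89.4 CPM with maltonis, log2(FC) 1.45 ± 0.0805 (SE). No treated library overlapped a not treated one. Against its target CTSG, SERPINB1 had 28.0 ± 3.35 counts per 100 counts of CTSG without treatment and 15.1 ± 1.22 with it (SD, n = 3). Against PRTN3 the ratio went the other way, from 6.26 ± 1.28 to 12.3 ± 3.05 counts per 100 counts of PRTN3 (SD, n = 3), without overlap.

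LYZ encodes lysozyme, which cuts bacterial cell walls and is found in several kinds of granule. It held 103, 108 and 103 CPM in not treated and 257, 291 and 299 CPM in maltonis-treated libraries, log2(FC) 1.43 ± 0.0713 (SE). No library of one group reached the other. An antisense gene is annotated across LYZ, and the strand setting of the counting is not given in the sources used here, so reads of this partner may be included.

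MPO went the other way. It held 12900, 15500 and 15400 CPM in not treated cells and 7420, 7300 and 7550 CPM after maltonis, with log2(FC) −0.98 ± 0.0827 (SE). The treated libraries were tightly grouped and all below the not treated ones. The log2 difference was −0.80 in batch A, where the not treated library was the lowest, and −1.06 in batch B. SRGN encodes serglycin, whose sulfated chains hold the basic granule proteins. Its libraries were at 2980, 3060 and 2900 CPM without and 2650, 3000 and 3140 CPM with maltonis. The groups overlapped, and log2(FC) was −0.02 ± 0.0736 (SE), with values from −0.10 to 0.09 over the fitted alternatives. A gene of the type miscellaneous RNA (RF00017) is annotated across SRGN on the same strand, so reads there may be assigned less surely.

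MPO had most of the counts, and the sum over the 9 genes was lower after maltonis, at 12200 ± 195 against 18400 ± 1410 CPM (SD, n = 3). Without MPO the sum of the other genes was higher, at 4760 ± 80.7 against 3790 ± 120 CPM. MPO took 79.3% of the summed CPM in not treated and 61.0% in treated cells. The 5 genes of the serine protease family (AZU1, PRTN3, ELANE, CFD and CTSG) together went from 682 ± 86.3 to 1460 ± 214 CPM (SD, n = 3). Inside a library, CTSG had 0.755 ± 0.107 counts per 100 counts of MPO without treatment and 7.45 ± 0.279 with it, the widest shift between a pair of well-counted genes among the 10 pairs compared.

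**Figure D2:**
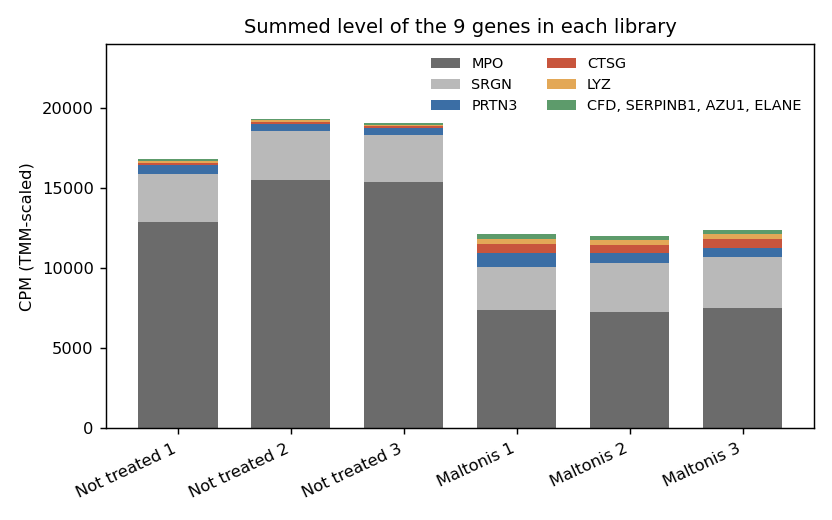
Summed CPM of the 9 genes in each of the 6 libraries as stacked bars, with the 4 genes of fewest counts drawn together. MPO makes up 79.3% of the sum without and 61.0% with maltonis.

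Sequence around the transcription start was looked up in RefSeq, where 5 of the 9 genes were matched by symbol. ELANE, MPO, SRGN and LYZ were not among them. Printed here are the 150 bases before the start of AZU1 and PRTN3, which changed alike, and of CFD, which rose more. Those of CTSG, the most changed gene outside the cluster, are printed as well. Coordinates are those of GRCh38.p14, while the counts were made on hg19. The windows are chr19:827687-827836 and chr19:840849-840998 on the plus strand, chr19:859514-859663 on the plus strand and chr14:24576251-24576400 on the minus strand. Letters in capitals mark matches, on either strand, to motifs of the TATA box (written TATAAA), C/EBP (TTGCNNAA), PU.1 (GAGGAA), RUNX (TGTGGT), MYB (CAACTG) or the interferon-stimulated response element, and the last capital of CTSG begins a CAACTG that runs past the start.
AZU1: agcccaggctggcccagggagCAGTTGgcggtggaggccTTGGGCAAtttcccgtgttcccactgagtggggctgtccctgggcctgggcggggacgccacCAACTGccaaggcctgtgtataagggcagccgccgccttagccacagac
PRTN3: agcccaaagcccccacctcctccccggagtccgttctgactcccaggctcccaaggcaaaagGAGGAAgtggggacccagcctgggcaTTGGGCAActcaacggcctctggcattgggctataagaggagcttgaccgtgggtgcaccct
CFD: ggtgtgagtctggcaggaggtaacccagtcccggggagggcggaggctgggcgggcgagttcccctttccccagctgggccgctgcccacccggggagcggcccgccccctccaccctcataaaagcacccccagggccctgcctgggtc
CTSG: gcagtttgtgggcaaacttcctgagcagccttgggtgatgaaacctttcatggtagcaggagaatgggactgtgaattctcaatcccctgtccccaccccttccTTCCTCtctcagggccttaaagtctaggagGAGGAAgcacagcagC
Both AZU1 and PRTN3 held TTGGGCAA, a match to the C/EBP motif on the minus strand, at 111 and 62 bases before the start. In windows of 300 bases (250 before and 50 after the start), this motif was in 2 of the 5 promoters and in 10.5% of 35116 promoters. GAGGAA was in 2 of 5 (PRTN3 and CTSG) and in 27.9% of all, and CAACTG in 2 of 5 (AZU1 and CTSG) and in 11.4% of all. The TATA box, RUNX and interferon response motifs were in 0 of the 5 windows, against 11.5%, 13.1% and 3.57% of all promoters, which says only that these letters are not in these windows. The 4 cluster genes share their strand, and stretches of 50 bases of ELANE, PRTN3 and CFD transcripts occurred in no other gene's transcript in GENCODE 29. In AZU1 4.66% and in LYZ 8.23% of such stretches did, and reads from these may be assigned less surely.

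The 4 cluster genes were next set against 20 protein-coding neighbors, 8 on the AZU1 side and 12 on the CFD side. Of 17 neighbors with enough counts, 5 rose and 8 fell at an FDR under 0.01 in edgeR's quasi-likelihood test and 4 were not called. Among the 16 that passed the filter on low counts in both groups, 4 rose and 8 fell. Of all genes tested, 31.9% rose and 32.1% fell by this rule. The neighbors had a median log2 fold change of −0.20 against 0.01 for all genes tested. LPPR3, next to AZU1, had log2(FC) 0.08 ± 0.162 (SE) and was not called. PTBP1, the splicing repressor beyond it, fell by 0.59 on the log2 scale. On the other side, MED16, a Mediator subunit next to CFD, fell by 1.13, from 38.3 ± 3.16 to 17.6 ± 1.78 CPM (SD, n = 3, adjusted p = 1.08e-05, edgeR). R3HDM4 had log2(FC) 0.27 ± 0.158 (SE) and was not called.

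Other genes further out moved more. C19orf21 (now MISP), 3 genes before AZU1, was at 3, 1 and 0 counts without treatment and at 106, 167 and 155 with it, a library-size-scaled ratio of 116 with a 95% counting interval of 45.1 to 429. Like ELANE, it passed the filter through the treated libraries alone. Its neighbor PALM fell by 1.76 on the log2 scale (SE 0.104). ABCA7, a lipid transporter 9 genes past CFD, rose from 3.90 ± 0.592 to 36.6 ± 3.77 CPM (SD, n = 3), and FSTL3, a follistatin-like activin antagonist, rose with a log2 fold change of 1.18. C19orf6 fell by 0.87. PRSS57, another serine protease gene of the azurophil granule, lies 5 genes before AZU1 and fell by 0.60 ± 0.117 (SE), from 230 ± 35.3 to 152 ± 15.7 CPM (SD, n = 3).

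**Figure D3:**
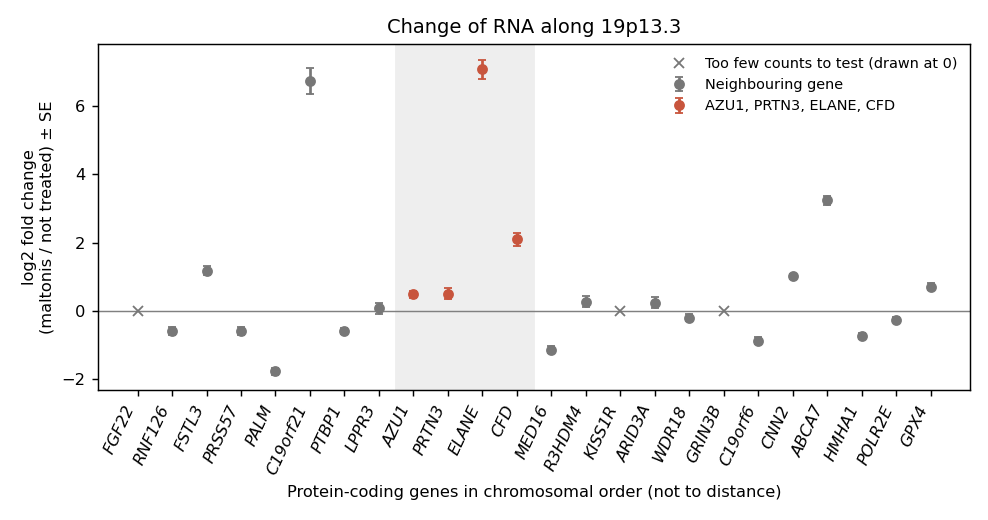
Fitted log2 fold change (± SE) of AZU1, PRTN3, ELANE and CFD (shaded, red) and their 20 neighbors (grey) in chromosomal order, with genes not tested as crosses at 0. ELANE at 7.07 stands beside PRTN3 at 0.50, and the nearest neighbors LPPR3 and MED16 are at 0.08 and −1.13. SE is derived from the F statistic of the fit, and for ELANE it is 0.279 against 0.47 in DESeq2.

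Genes beside CTSG, MPO, LYZ, SRGN and SERPINB1 were treated in the same way. Of 22 such neighbors, 16 were tested, of which 5 rose, 4 fell and 7 were not called (median log2 fold change 0.01). The shares of 31.2% higher and 25% lower were near the 31.9% and 32.1% of all genes tested. CMA1, the mast cell chymase beside CTSG, had 1, 0 and 1 counts without and 20, 29 and 36 counts with maltonis, a library-size-scaled ratio of 46.2 with a 95% counting interval of 12.4 to 388. CMA1 too passed the filter on treated libraries only. Without CMA1, 4 of 15 tested neighbors rose and 4 fell. Beside MPO, its relative LPO, the lactoperoxidase gene, fell with it (log2(FC) −1.16 ± 0.147, SE), as did MKS1 (−1.04), while BZRAP1 rose (1.28). The carboxypeptidase M gene beside LYZ, whose symbol is also CPM, rose with a log2 fold change of 0.95, a call that was lost without not treated replicate 3, without maltonis replicate 1 and without maltonis replicate 3. SUPV3L1, beside SRGN, fell by 0.43.

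Other products of the azurophil granule were listed to see how far the set was followed. Of 20 genes, 15 were tested, and 11 rose, 3 fell and 1 was not called, with a median log2 fold change of 0.53. The shares of 73.3% higher and 20% lower stood against 31.9% and 32.1% of all genes tested. The largest increases were those of acid hydrolases, ARSA (2.28 ± 0.0955, SE), which cleaves sulfatide, and FUCA1 (1.73 ± 0.0742, SE), which cleaves fucose from glycans. These enzymes also belong to ordinary lysosomes. DEFA4, an α-defensin gene, rose from 2.10 ± 0.115 to 6.89 ± 0.224 CPM (SD, n = 3). DEFA1, DEFA1B and DEFA3 had 0 counts in all 6 libraries, which allows up to 0.160 CPM in a library, and as near-identical copies their reads may not have been assigned. The decreases were those of STOM (−0.92), which encodes the membrane protein stomatin, RNASE2 (−0.81), the eosinophil-derived neurotoxin, and PRSS57 (−0.60).

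Proteins of the later specific and gelatinase granules did not move in one direction. Of 24 genes, 10 were not tested, 6 of them with no count in any library, among them LCN2, which was picked after its values were seen. Of the 14 tested, 3 rose, 6 fell and 5 were not called, with a median of 0.05. That is 21.4% higher and 42.9% lower, beside 31.9% and 32.1% of all genes tested. HP, the haptoglobin gene, rose from 0.201 ± 0.115 to 2.52 ± 0.439 CPM (SD, n = 3), PGLYRP1 rose from 0.314 ± 0.130 to 0.899 ± 0.0711 CPM, and CYBB, the large subunit of the NADPH oxidase, rose with a log2 fold change of 0.69. HP and PGLYRP1 passed the filter only through the treated libraries, and ABCA13 only through the not treated ones. Without these 3, 1 of 11 genes rose and 5 fell. The scaled ratio of HP was 14.3 with a 95% counting interval of 8.59 to 25.4, on 16 counts against 210, and that of PGLYRP1 was 2.80 (1.78 to 4.50), on 28 counts against 72. The PGLYRP1 call was lost without maltonis replicate 1 and without maltonis replicate 2. PTX3 fell by 2.27, ABCA13 by 1.73 and CTSH, a cysteine protease gene, by 1.55 on the log2 scale.

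Genes that process, sort or inhibit the proteases were counted next. Of 22 genes, 17 were tested, and 6 rose, 3 fell and 8 were not called (median 0.00). Higher genes made up 35.3% and lower ones 17.6%, beside 31.9% and 32.1% of all genes tested. Without not treated replicate 1, 5 fell. CTSC, the cathepsin C that activates the granule proteases, fell from 511 ± 14.0 to 366 ± 14.5 CPM (SD, n = 3), log2(FC) −0.48 ± 0.0565 (SE, adjusted p = 6.57e-05, edgeR). The endoplasmic reticulum chaperones CALR and CANX fell by 1.00 and 0.35. Serpins of the same clade as SERPINB1 were among the increases, with SERPINB2 at 2.38 ± 0.248 (SE) and SERPINB8 at 1.37 ± 0.0849 (SE), and CTSL1, the cathepsin L gene, rose by 1.63 on the log2 scale. SERPINB2 passed the filter through the treated libraries only, with 19 counts against 93, a scaled ratio of 5.32 with a 95% counting interval of 3.23 to 9.24. Without SERPINB2, 5 of 16 tested genes of this list rose and 3 fell. SERPINB6 and SERPINB9, also listed among the neighbors of SERPINB1, had at most 7 counts in any library.

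Transcription factors and receptors known to act on these genes came last. Of 14 listed, 12 were tested, and 6 fell, 1 rose and 5 were not called (median −0.45). That is 8.33% higher and 50% lower, beside 31.9% and 32.1% of all genes tested. MYB fell from 445 ± 28.1 to 143 ± 2.58 CPM (SD, n = 3), log2(FC) −1.64 ± 0.0636 (SE). CEBPA and CEBPE, whose products switch on granule genes in early and late granulocytes, fell by 0.96 and 0.95. SPI1, which encodes PU.1, fell by 0.62 ± 0.163 (SE, adjusted p = 0.00754, edgeR), a call lost with scaling by total counts or the upper quartile, and lost in every fit with 1 library left out except that without maltonis replicate 1. GFI1, a repressor of ELANE, was at 193 ± 21.1 and 203 ± 11.8 CPM and was not called. CSF3R, the receptor of granulocyte colony-stimulating factor, rose by 0.37, a call lost in each fit without one library except that without not treated replicate 1.

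**Figure D4:**
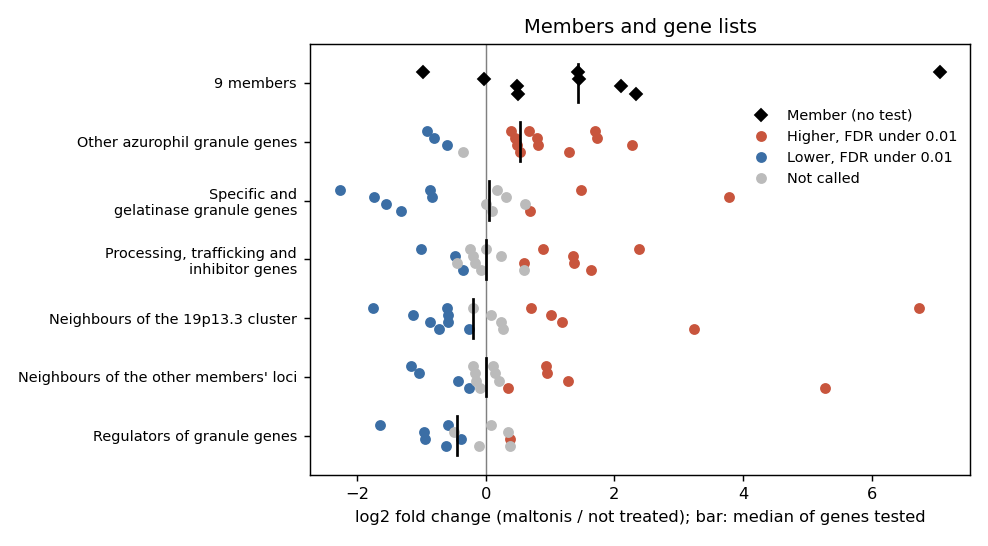
Fitted log2 fold change of each tested gene for the 9 genes (diamonds, no test) and for 6 gene lists, colored by call at an FDR under 0.01 and with the median as a bar. Points of the other azurophil granule genes lie mostly to the right of 0 (median 0.53) and those of the regulators to the left (median −0.45).

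The genes nearest to ELANE in profile were found from log2 CPM, centered per gene, over the 6 libraries. In order of Euclidean distance they were XKR7 (0.713), AP3B2 (1.00), SYP (1.01), HFE (1.07) and TMEM198 (1.24). XKR7 had 0 counts in every not treated and 139, 237 and 151 in the treated libraries, at least 58.9-fold higher when the not treated group is set to 3 counts per library. AP3B2 went from 0.119 ± 0.0766 to 9.34 ± 0.766 CPM and HFE from 0.235 ± 0.0317 to 25.8 ± 2.80 CPM (SD, n = 3). SYP went from 0.263 to 23.4 CPM and TMEM198 from 0.375 to 26.0 CPM in the means. All 5 were at a mean of at most 0.375 CPM without treatment, as ELANE was at 0.129. They were picked by likeness to ELANE's profile, so this low level follows largely from the choice. Like ELANE, all 5 passed the filter on low counts through the treated libraries alone.

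Markers of cell identity gave the libraries as myeloid. All 8 promyelocyte markers had counts in every library, and they summed to 14500 to 17200 CPM without and 8400 to 8700 CPM with maltonis, most of it MPO. Of these 8, KIT stood at a mean of 0.535 CPM without and 3.22 CPM with maltonis, and PRAM1 (6.71 and 7.79 CPM) and CLEC11A (640 and 615 CPM) differed little in their means, while MPO, CD33, ANPEP, CEBPA and CEBPE were lower. Of 5 erythroid markers 3 had no count and none passed 3 counts in any library. The monocyte markers CD14, FCGR3A and CSF1R summed to 5.59 to 12.6 CPM without and 12.1 to 13.2 CPM with maltonis, and FCGR3A had at most 2 counts. The T cell markers CD3D, CD3E and CD3G summed to 43.4 to 45.6 CPM without and 15.0 to 15.9 CPM with maltonis, nearly all of it CD3D, while CD3E had at most 2 counts. The megakaryocyte markers summed to 18.8 to 20.6 and 28.2 to 31.7 CPM, of which ITGA2B was the only one above the floor, and the B cell markers to 2.08 to 3.25 and 1.14 to 1.28 CPM. Fibroblast markers summed to at most 0.826 CPM. Their part in the values above was not tested.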

How the data were processed

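RNA-seq libraries of not treated and 10 µM maltonis-treated NB4 cells (24 h, 3 biological replicates each) were analyzed. The authors deposited 1 table per library of raw whole-number counts of reads per gene symbol. The submitters' processing notes name TopHat, Bowtie2 and HTSeq with hg19, and the annotation and strand setting are not given in the sources used here. Libraries held 18492154 to 38205483 counts. Replicates differed by more than sampling noise (chi-square per degree of freedom of 4.15 to 33.1).

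Counts were analyzed in R 4.3.3 with edgeR 4.0.16 (TMM, filterByExpr, quasi-likelihood test, Benjamini-Hochberg adjustment over 13209 genes), first tested on simulated data. The SE of a fitted log2 fold change was its size divided by the square root of the quasi-likelihood F statistic. CPM values are TMM-scaled. RPKM used the summed exons of GENCODE 29. The study's RPKM criterion for calls was not applied. Within-batch differences used log2 CPM with a prior count of 2. DESeq2 1.42.0 served as an alternative, with other scalings, no filter, a replicate block, a batch term and each library left out. The gene members and lists were chosen with earlier results of these data known. Named genes were the members, up to 3 largest rises and falls called in each list, the DEFA genes, CTSC, GFI1, CEBPE, CEBPA, SPI1, the 2 nearest neighbors on each side of the cluster, and the 5 genes nearest to ELANE. A comparison of protein sequences was not run.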

Additional observations from a re-analysis of the deposited data

How the results depend on the processing

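The direction of the change was the same in all alternatives for the members except SRGN. Its log2 fold change was 0.09 with scaling by total counts, 0.06 with upper quartile scaling, 0.04 within batch B, −0.17 within batch A and between −0.10 and 0.02 with a library left out. Scaling by total counts and by the upper quartile moved the median log2 fold change of all genes from 0.014 to 0.133 and 0.101. With total counts, MPO was at −0.86, CTSG at 2.46, SERPINB1 at 1.57 and LYZ at 1.55, and with the upper quartile CTSG was at 2.43. Within batch A, a setting chosen after seeing the data with 1 library per group and no test, ELANE was at 6.51, MPO at −0.80 and LYZ at 1.322. These 3 values are differences of log2 CPM with a prior count of 2, not fitted values. On that measure ELANE was at 6.48 within batch B, where the fit gave 7.04. With the longest transcript as length, SERPINB1 was at 11.6 and LYZ at 68.3 RPKM in not treated cells.

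Within batch B, 5 specific and gelatinase granule genes rose and 7 processing genes fell, and the cause was not tested. Leaving out a library gave 3 to 5 processing genes that fell and 0 to 1 regulators that rose. With the replicate block 2 regulators rose, and with the batch as a term 3 did. Same-numbered libraries correlated with 0.301, 0.0852 and 0.161 in their deviations from the group means, and the labels give them no shared origin. The replicate block moved no other count of calls past 1.5 times. Of 90 tested genes in the lists, 10 lost and 20 gained a call in some alternative and none changed direction while called. Depth limits ELANE, C19orf21, CMA1, HP, PGLYRP1, SERPINB2 and the 5 genes nearest to ELANE, which had few or no counts without treatment.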
